A study of Mus musculus with 24 samples.

Results

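The skeletal muscle program of mouse fetal head (FH) was described through 10 genes of 26212 counted in GENCODE M1 (mm9). The genes were chosen by name as regulators or structural proteins of the muscle fibre, with earlier results of these data known. They were Myog, Myod1 and Myf5 (myogenic regulators), Myh3 and Myh8 (myosin heavy chains), Acta1, Actc1 and Neb (thin filament), Ttn (elastic filament) and Des (intermediate filament). Each gene was measured in 16 libraries of ribosomal RNA-depleted RNA-Seq as RPKM: uniquely mapped tags with their midpoint in a merged exon, scaled to the exon length in kilobases and to the nuclear tags of the library.

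FH was taken from FVB/N fetuses at 14.5 dpc. It holds many tissues besides muscle, and the study describes it as mainly fetal brain. The comparison tissue was CCE, a 129/SvEv embryonic stem cell line that grows without feeder cells and that was differentiated for 5 days by withdrawal of LIF together with 0.266 uM retinoic acid. RiboMinus RNA gave 8 CCE libraries and 6 FH libraries: 4 CCE preparations and 3 FH preparations of cDNA, fragmented by hydrolysis of the RNA or shearing of the cDNA, were each sequenced at Vienna-IMP and at Nijmegen. Preparations carry the number 1 or 2 in their label, and FH preparation 2 had a second round of depletion. Ribo-Zero RNA, prepared separately and hydrolysed, gave 1 further library per tissue. Both ways of fragmentation were applied to the same depleted RNA, so sheared and hydrolysed preparations of a number were not independent, and each tissue had 2 depleted RNAs. The RiboMinus preparations of a tissue were technical replicates, and the p-values below measure the spread between preparations and not between animals or cultures. Strain, tissue and culture differed together between FH and CCE and cannot be told apart, nor can fewer muscle cells be told apart from less RNA per cell in bulk samples.

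RiboMinus libraries held 920424 to 2473448 nuclear tags, and protein-coding exons took 43.7% to 71.1% of them. Ribo-Zero was sequenced deeper, to 26345467 tags (CCE) and 46226046 tags (FH). The labelled tissues were checked on marker lists: in RiboMinus, 10 of 10 neural markers were higher in FH, with summed levels of 435 to 827 RPKM in FH libraries and 39.6 to 60.4 RPKM in CCE libraries, and 9 of 10 primitive endoderm markers were lower in FH, against 23.2% higher and 24.9% lower of all genes tested. The neural log2 differences ran from 0.59 (Nes) to 4.67 (Neurod6) and 4.86 (Dcx), and the endoderm ones from -4.15 (Gata6) to -0.99 (Col4a1) and 0.20 (Sox7, which did not pass at a limma adjusted p of 0.545). Of the neural markers, 2 had under 10 tags in CCE RiboMinus, Dcx (7) and Neurod6 (0), and entered the test through their FH tags. In Ribo-Zero, 9 of the 10 neural markers were over 2-fold higher in FH and 1, Sox2, was over 2-fold lower, at 46.5 (CCE) and 22.5 (FH) RPKM, against 23.1% and 28.6% of all genes.

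Skeletal muscle is built in steps. The bHLH factors Myf5 and Myod1 commit progenitors to the muscle lineage, and Myog drives the differentiation of myoblasts, which fuse into multinucleated fibres. Fibres then assemble sarcomeres, in which myosin thick filaments slide along actin thin filaments while titin reaches from the Z disc to the M line and nebulin runs along the thin filament. Fetal fibres use developmental myosins (Myh3, embryonic, and Myh8, perinatal) and express cardiac actin (Actc1) beside skeletal actin (Acta1). In the head this program runs in the muscles of the eyes, jaw, face and tongue.

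The regulators of this program bind short DNA motifs, so the bases before the gene starts are shown for 5 of the genes, which stand for a regulator, both actins, titin and desmin. The RefSeq promoter table (GRCm38.p6, another build than the tags) held 8 of the 10 genes, all but Myod1 and Neb, and 250 bases before each start were searched. The motifs were the E-box CANNTG, the target of myogenic bHLH factors, the CArG box of serum response factor (CC and GG around 6 bases that are each A or T) and the MEF2 box (CTA and TAG around 4 bases that are each A or T). All 3 motifs read the same on both strands. Capitals mark every match, and the number of bases before the start is counted to the first base of the motif.

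Myog: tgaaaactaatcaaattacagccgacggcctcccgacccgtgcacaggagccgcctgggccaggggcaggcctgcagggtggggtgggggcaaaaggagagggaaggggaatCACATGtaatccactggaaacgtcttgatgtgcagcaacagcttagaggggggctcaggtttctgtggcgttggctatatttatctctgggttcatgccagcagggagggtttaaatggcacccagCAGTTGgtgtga
Acta1: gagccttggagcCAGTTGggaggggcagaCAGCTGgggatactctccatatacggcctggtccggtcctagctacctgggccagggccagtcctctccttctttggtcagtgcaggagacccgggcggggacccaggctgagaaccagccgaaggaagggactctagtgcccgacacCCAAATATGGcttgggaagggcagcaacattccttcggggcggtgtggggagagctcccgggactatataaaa
Actc1: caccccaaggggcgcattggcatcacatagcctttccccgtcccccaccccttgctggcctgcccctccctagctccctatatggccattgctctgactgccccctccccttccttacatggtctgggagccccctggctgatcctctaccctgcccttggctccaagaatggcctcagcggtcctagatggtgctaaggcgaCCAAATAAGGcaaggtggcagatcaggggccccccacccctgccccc
Ttn: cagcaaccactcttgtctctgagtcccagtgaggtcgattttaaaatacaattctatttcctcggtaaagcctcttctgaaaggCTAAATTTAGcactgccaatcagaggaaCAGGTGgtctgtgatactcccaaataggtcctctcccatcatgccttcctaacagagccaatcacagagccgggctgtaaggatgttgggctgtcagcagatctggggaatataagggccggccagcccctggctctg
Des: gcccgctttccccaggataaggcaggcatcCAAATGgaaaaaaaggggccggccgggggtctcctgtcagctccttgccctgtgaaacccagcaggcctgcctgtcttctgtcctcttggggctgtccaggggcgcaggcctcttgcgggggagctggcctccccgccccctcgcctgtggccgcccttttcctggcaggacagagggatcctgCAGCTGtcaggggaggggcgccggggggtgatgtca

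The windows lay at chr1:134289754-134290003 (Myog, plus strand), chr8:123894776-123895025 (Acta1, minus strand), chr2:114052876-114053125 (Actc1, minus strand), chr2:76982548-76982797 (Ttn, minus strand) and chr1:75360042-75360291 (Des, plus strand). An E-box stood in 6 of the 8 windows, and 66.2% of all 32851 promoters in the table held one. Myog had E-boxes at 138 and 12 bases before its start, Acta1 at 238 and 221, and Des at 220 and 36. The CArG box stood in 2 of the 8 windows, those of both actins, against 1.47% of all promoters. The MEF2 box in this form stood in 1 window, that of Ttn, against 0.508% of all promoters. Forms with other outer bases were not searched, so windows without a match can hold another form. With any base allowed inside, the MEF2 box stood in 2 of the 8 windows (3.20% of all promoters) and the CArG box in 5 (67.1% of all promoters); the stricter forms were chosen after the windows were seen. A match is a run of letters and not a shown binding site.

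The myogenic regulators were read in FH and not in CCE RiboMinus. Myog (chr1:136186581-136189124, plus strand, 3 exon blocks, mm9) had 707 tags in FH and none in the 8 CCE libraries. Its level in the 6 FH libraries was 20.3 RPKM at the lowest, 50.3 at the median and 67.1 at the highest, so the groups did not overlap. The mean over FH preparations was 48.5 ± 1.58 RPKM (SD, n = 3), and 47.9 ± 16.4 with the hydrolysed numbers crossed at Nijmegen, so the spread depended on which libraries were summed. Against a floor of 3 tags over the 8 CCE libraries, pooled FH was 309.9-fold higher, a bound that leaves out the counting error of the FH tags. The fitted log2 difference was 5.63 with a standard error of 0.16 and an adjusted p of 1.91e-07 (limma on log2(RPKM + 1), Benjamini-Hochberg over 16836 genes). Fitted differences of genes at or near 0 in CCE, Neb and Ttn among them, depend on the pseudocount and understate low genes.

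Myod1 (chr7:53631844-53634462, plus strand) had 307 FH tags and none in CCE. The FH libraries ranged from 8.10 through a median of 14.5 to 41.0 RPKM, and every one was above CCE. FH was at least 135-fold higher, with a log2 difference of 4.21 ± 0.33 (SE) and an adjusted p of 1.38e-05. Myf5 (chr10:106919964-106923190, minus strand) was the rarest regulator by level. It had 26 FH tags and no CCE tag, with FH libraries at 0.908, 1.28 and 2.09 RPKM (lowest, median, highest). FH was 11.4-fold above the same floor, with a log2 difference of 1.22 ± 0.13 (SE) and a limma adjusted p of 7.8e-05.

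The deeper Ribo-Zero libraries gave the regulators the same direction. Myog had 1399 FH tags and 7 CCE tags, which gave 20.5 RPKM (95% exact Poisson interval 19.4 to 21.6) against 0.180 (0.0722 to 0.370), a ratio of 114 (exact conditional interval 55.1 to 284). Against a floor of 3 CCE tags, Myod1 (302 tags against 0) was 57.4-fold higher and Myf5 (111 tags against 0) 21.1-fold higher. The exact upper limits of the CCE to FH ratio were 0.0216 (Myod1) and 0.0593 (Myf5). With repeated positions counted once, the Myog ratio was 59.6, and the ratios to the floor were 38.1 for Myod1 and 15.4 for Myf5. With 1 library per tissue there was no test. The intervals cover counting error only, and the ratios to the floor leave out that of the FH tags.

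The developmental myosin heavy chains on chromosome 11 followed the regulators. Myh3 (chr11:66891802-66915793, plus strand, 42 exon blocks) had 583 FH tags and no tag in the 8 CCE RiboMinus libraries. Its FH libraries ran from 7.95 through 8.83 to 12.0 RPKM (lowest, median, highest), the narrowest range for its level among the thick and thin filament genes here. FH was 255.5-fold above a floor of 3 CCE tags, and the log2 difference was 3.36 ± 0.16 (SE, limma adjusted p = 1.51e-06). Myh8 (chr11:67090626-67122136, plus strand, 39 exon blocks) had 170 FH tags and no CCE tag. Its FH libraries ran from 0.461 through 1.41 to 1.91 RPKM. Pooled FH was 74.5-fold above the same floor, with a log2 difference of 1.19 ± 0.16 (SE, limma adjusted p = 0.000399).

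In Ribo-Zero, Myh3 reached 42.0 RPKM (41.3 to 42.8) in FH and 0.142 (0.0900 to 0.213) in CCE, a ratio of 296 (197 to 467). With repeated positions counted once, the Myh3 ratio was 76.3. Myh8 reached 4.15 RPKM (3.99 to 4.33) in FH from 2261 tags, against 3 tags in CCE, a ratio of 429.5 (147 to 2084), or 310.2 with repeated positions counted once. The Myh8 exon model of 11772 bases held 5887 bases outside the coding sequence, and these were read at 0.0756 of the coding density in FH Ribo-Zero. Over coding exons alone Myh8 stood at 7.73 RPKM there and at 2.67 RPKM in FH RiboMinus. Myosin genes share sequence, and 29.2% of 36-base windows of Myh3 and 26.5% of Myh8 were within 2 mismatches of a related myosin. At positions at least 6 mismatches from every related myosin, Myh3 had 365 FH RiboMinus tags and Myh8 74. FH Ribo-Zero had 7777 Myh3 and 913 Myh8 tags there, and CCE Ribo-Zero had 18 and 0.

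**Figure D1:**
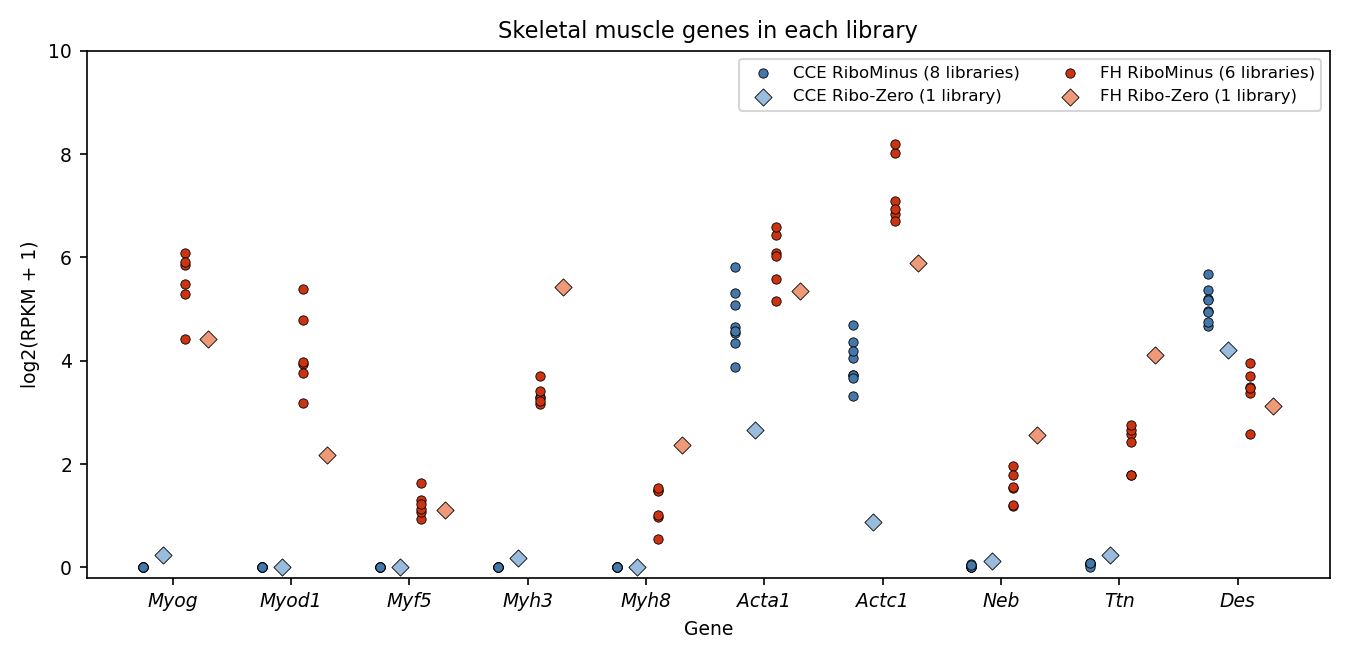
The level of each gene in each library, as log2(RPKM + 1) on the vertical axis and the gene on the horizontal axis, with 1 point per library (circles RiboMinus, diamonds Ribo-Zero). Myog, Myod1, Myf5, Myh3 and Myh8 lie at 0 in all 8 CCE RiboMinus libraries, Acta1 libraries of the tissues overlap, and Des is the gene whose CCE points lie above FH.

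Actc1 was the most abundant of the 10 genes in FH and was read at a lower level in CCE. Actc1 (chr2:113873018-113879284, minus strand, 8 exon blocks) had 325 CCE tags, with CCE libraries between 8.93 and 24.9 RPKM and a median of 13.9. Its FH libraries lay between 103 and 292 RPKM with a median of 129, and did not overlap with CCE. The preparation means were 174 ± 56.7 RPKM in FH (SD, n = 3) and 15.4 ± 2.55 in CCE (SD, n = 4), and the log2 difference was 3.37 ± 0.26 (SE, limma adjusted p = 1.52e-05). It ranked 58 among protein-coding genes by mean level in FH. In Ribo-Zero, Actc1 was at 58.0 RPKM (56.3 to 59.8) in FH and 0.845 (0.592 to 1.17) in CCE, a ratio of 68.7 (49.6 to 98.2), or 18.3 with repeated positions counted once.

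Acta1, the actin of adult skeletal fibres, was the member whose groups overlapped. Acta1 (chr8:126415669-126418651, minus strand, 7 exon blocks) ran from 13.7 through a median of 23.5 to 55.2 RPKM in the 8 CCE libraries, and from 34.6 through 65.9 to 95.4 RPKM in the 6 FH libraries. The highest CCE library, CCE2 hydrolysed at Vienna-IMP, was above 2 FH libraries, FH1 hydrolysed (34.6 RPKM) and FH2 hydrolysed (47.0 RPKM) at Nijmegen. Over preparations FH was at 66.4 ± 20.6 RPKM (SD, n = 3) and CCE at 28.8 ± 4.91 (SD, n = 4), with a log2 difference of 1.15 ± 0.24 (SE, limma adjusted p = 0.0038). In Ribo-Zero the ratio was 7.51 (6.51 to 8.71), from 40.03 RPKM in FH and 5.33 RPKM in CCE, and 3.29 with repeated positions counted once.

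A large share of the Acta1 tags of CCE RiboMinus lay at 1 place. Of 553 CCE RiboMinus exon tags, 297 (53.7%) had their midpoint within 5 bases of 1 position, against 12 of 881 (1.36%) in FH RiboMinus. The share ran from 20.6% to 84.8% in the 8 CCE libraries and from 0 to 3.40% in the 6 FH libraries. In the Ribo-Zero libraries it was 6.90% for CCE and 1.01% for FH.

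Acta2, the smooth muscle actin, was at 895 ± 99.5 RPKM in CCE RiboMinus preparations (SD, n = 4) and 36.1 ± 11.1 in FH (SD, n = 3), and the Ribo-Zero libraries gave 41.4 (CCE) and 22.5 (FH). At the place where many CCE tags of Acta1 lay, spliced transcripts of Acta2 and other actins are nearly identical to Acta1. The CCE level of Acta1 (28.8 RPKM) and its log2 difference of 1.15 can therefore include tags of those genes. The deposited tags carry no bases, and the part of other actin transcripts in the Acta1 tags was not tested.

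With the 11 positions left out, an alternative chosen after the data were seen, Acta1 stood at 13.7 RPKM in pooled CCE and 61.0 in pooled FH, and its log2 difference was 2.17 (SE 0.28, limma adjusted p = 0.000291). Of the 36-base windows of Acta1, 23.2% were within 2 mismatches of another actin, and of Actc1 15.0%. At positions at least 6 mismatches from every other actin, also chosen after the data were seen, Acta1 stood at 16.4 RPKM over those positions in CCE and 48.5 in FH, with a log2 difference of 1.62 (adjusted p = 0.0084), and Actc1 stood at 10.9 and 175 RPKM, with a log2 difference of 3.69 (adjusted p = 1.94e-05).

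Neb and Ttn encode the giant proteins of the sarcomere and were read along most of their length in FH. Neb (chr2:51992167-52194318, minus strand, 164 exon blocks, 26369 exon bases) had 555 FH tags against 7 in CCE RiboMinus. CCE libraries lay between 0 and 0.0522 RPKM and FH libraries between 1.29 and 2.89 RPKM with a median of 1.92. The pooled ratio was 104 (50.3 to 261), and the log2 difference 1.53 ± 0.15 (SE, limma adjusted p = 6.31e-05). Ribo-Zero gave 4.89 RPKM (4.77 to 5.02) in FH and 0.0936 (0.0722 to 0.119) in CCE, a ratio of 52.3, or 32.8 with repeated positions counted once.

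Ttn (chr2:76542037-76820604, minus strand) had 345 exon blocks and 116828 exon bases and took 5343 of the 11968 FH RiboMinus tags of the 10 genes. CCE libraries ran from 0.0123 through 0.0485 to 0.0671 RPKM, and FH libraries from 2.44 through 4.72 to 5.74 RPKM. The groups did not overlap, the pooled ratio was 92.4 (73.7 to 118), and the log2 difference was 2.27 ± 0.21 (SE, limma adjusted p = 4.09e-05). In Ribo-Zero, 88337 FH tags gave 16.4 RPKM (16.2 to 16.5) and 557 CCE tags gave 0.181 (0.166 to 0.197), a ratio of 90.4 (83.2 to 98.4). With repeated positions counted once, the Ttn ratio was 45.7. A gene on the other strand, Gm13938, shares 453 exon bases with Ttn. Tags of the pair cannot be told apart there, since the cDNA was prepared without strand information.

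The few Ttn tags of CCE did not cover the same part of the gene as those of FH. In FH Ribo-Zero, 24243 of 88337 exon tags (27.4%, exact interval 27.1 to 27.7) lay in the first 40% of the exon model from the 5′ end, and in CCE Ribo-Zero 23 of 557 (4.13%, 2.64 to 6.13). In RiboMinus the shares were 30.5% (29.3 to 31.8) in FH and 1.32% (0.0333 to 7.11) in CCE, where 1 of 76 tags lay there. The share in single FH RiboMinus libraries was between 26.9% and 43.8%. With the exon model divided into 10 equal parts, CCE Ribo-Zero had 0.00325 RPKM in part 4 and 0.312 in part 5, while FH Ribo-Zero had 6.14 and 15.9. These intervals cover counting error only, and in Ribo-Zero each tissue is 1 library.

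**Figure D2:**
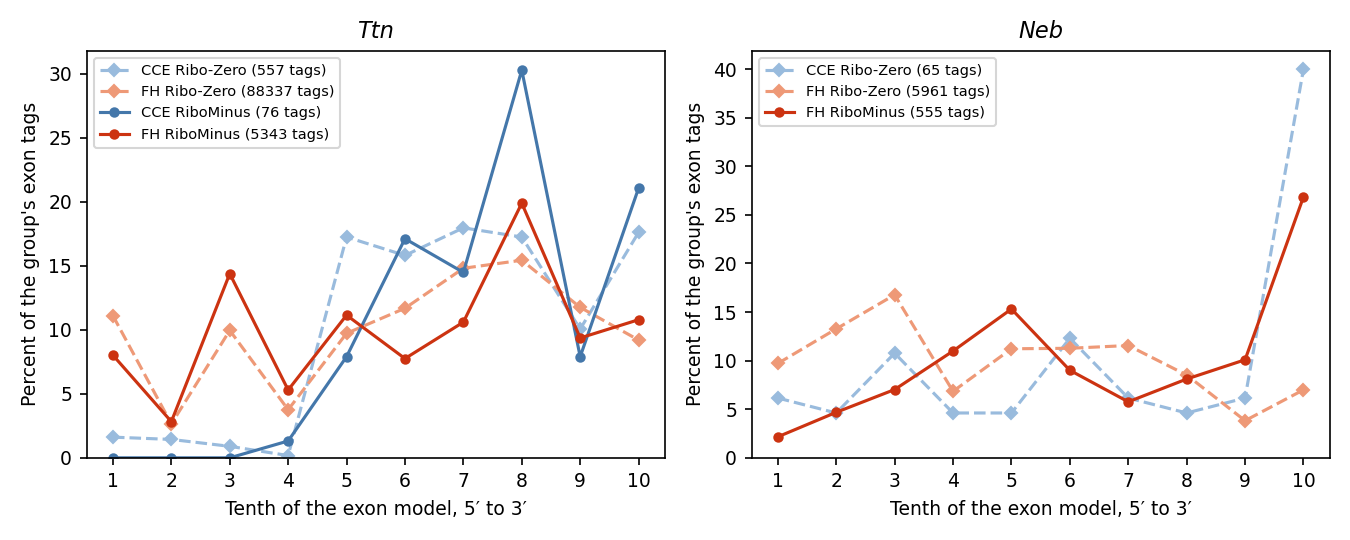
The percent of exon tags of each group (vertical axis) in each of 10 equal parts of the exon model of Ttn (left) and Neb (right), from 5′ to 3′ (horizontal axis). CCE tags of Ttn are nearly absent from the first 4 parts, where FH has 27.4% (Ribo-Zero) and 30.5% (RiboMinus) of its tags.

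Titin is spliced into isoforms of different length, and its long exons were not read alike in FH. The longest block, number 307 from the 5′ end (chr2:76574121-76591226, 17106 bases, in 6 of 26 annotated transcripts), had 20362 FH Ribo-Zero tags, or 25.8 RPKM. Block 44 (chr2:76745365-76748010, 2646 bases, in 3 transcripts) had 97 tags, or 0.793 RPKM, and block 43 (chr2:76752001-76758520, 6520 bases, in Ttn-021 alone) had 638, or 2.12 RPKM. FH RiboMinus gave these blocks 8.39, 0.381 and 0.433 RPKM in the same order. The median over all 345 blocks was 14.3 RPKM in FH Ribo-Zero, and 23 blocks, each of at most 84 bases, had no tag there. The study did not map tags that cross a splice junction, so a tag had to lie within 1 exon. Short blocks could therefore hold few tags or none, and a block without a tag is not shown to be left out of titin RNA.

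Neb tags of FH lay differently along the gene in RiboMinus and in Ribo-Zero, which is 1 library and differed in more than the kit. The first 40% of the exon model held 17.4% to 39.4% of the Neb tags of single FH RiboMinus libraries, and 46.6% in FH Ribo-Zero. The part of the kit was not tested. The last of 10 equal parts of the exon model held 149 of 555 FH RiboMinus tags and 417 of 5961 FH Ribo-Zero tags, and in CCE Ribo-Zero 26 of 65. Neb introns held 101 CCE Ribo-Zero tags beside the 65 in exons, an intron density of 23.3% of the exon density, against 2.78% in FH Ribo-Zero.

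Des went the other way from the other 9 genes. Des (chr1:75356904-75365154, plus strand, 8 exon blocks) encodes desmin, the intermediate filament protein of skeletal, cardiac and smooth muscle. The 8 CCE libraries ran from 24.6 through a median of 32.8 to 50.1 RPKM and the 6 FH libraries from 5.00 through 10.2 to 14.5 RPKM, with every FH library below every CCE library. The preparation means were 10.4 ± 1.41 RPKM in FH (SD, n = 3) and 33.8 ± 7.67 in CCE (SD, n = 4), and Des fell by 1.60 on the log2 scale (SE 0.21, limma adjusted p = 0.000284). Ribo-Zero gave 17.5 RPKM (16.7 to 18.3) in CCE and 7.70 (7.29 to 8.12) in FH, so that CCE was 2.27-fold (2.11 to 2.44) higher, or 2.56-fold with repeated positions counted once. Gm15179 shares 220 exon bases with Des.

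Markers of other muscle types were counted in the same libraries. Of 10 smooth muscle markers tested in RiboMinus, 7 were lower in FH, 2 were higher (Mylk, myosin light chain kinase, and Synpo2) and 1 did not pass, against 24.9% lower and 23.2% higher of all genes. Their summed level was 1945 to 2971 RPKM in CCE libraries and 53.4 to 108 in FH libraries. Tagln, which encodes transgelin, was at 1392 ± 116 RPKM in CCE (SD, n = 4) and 17.9 ± 2.85 in FH (SD, n = 3). The Ribo-Zero libraries gave less of this difference, with summed levels of 139 (CCE) and 37.7 (FH) RPKM, of which Tagln took 83.5 and 5.26. There 3 of the 10 markers were over 2-fold lower in FH and 2 over 2-fold higher, shares near the 28.6% and 23.1% of all genes. Actg2, a smooth muscle actin, and Myh11, the smooth muscle myosin, were lower in FH in RiboMinus but stood at 0.462 and 0.406 RPKM in CCE Ribo-Zero and at 0.748 and 0.656 in FH Ribo-Zero. Of 11 cardiac markers tested in RiboMinus, 8 were lower in FH, none was higher, and 3 did not pass. The markers were uneven in CCE RiboMinus. Of the 12 cardiac markers, 8 had a mean of at least 1 RPKM there and 4 were under it, from Hand2 (25.8 RPKM), Gata4 (13.1), the natriuretic peptide Nppb (7.11) and the atrial light chain Myl7 (3.13) to the troponin Tnni3 (0.763) and the myosin Myh6, which had no tag. Of the 10 smooth muscle markers, 6 had at least 1 RPKM and 4 were under it, from Tagln, Acta2 and the calponin Cnn1 (123 RPKM) through Actg2 (17.1) to the coactivator Myocd (0.603), Myh11 (0.602), Mylk (0.388) and Synpo2 (0.266). Gata4, a cardiac and endodermal factor, had 651 CCE tags and no FH tag in RiboMinus, while Nkx2-5 (log2 difference of -0.17, adjusted p = 0.728) and Ryr2 (-0.25, adjusted p = 0.167) did not pass. Of the 10 skeletal muscle genes, 5 were at 0 in the same CCE libraries (Myog, Myod1, Myf5, Myh3 and Myh8). Other skeletal muscle genes were uneven as well: of the 115 on the muscle lists described below, 21 had no tag there. Of these 115 genes, 79 were under 1 RPKM in CCE RiboMinus and 36 had at least 1 RPKM. The part of the cells that carry cardiac or smooth muscle markers in the level of Des, Acta1 or Actc1 in CCE was not tested.

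In all, 9 of the 10 genes were called higher in FH and 1, Des, lower, at an adjusted p under 0.05. Over the 16836 genes tested, 23.2% were called higher and 24.9% lower (3911 and 4186 genes). Every FH library was above every CCE library for 8 of the 10 genes, against 14.7% of all genes tested, and below for 1, against 14.5%. The median fitted log2 difference of the 10 genes was 1.90, and that of all genes was -0.10. With the 5 genes at 0 in CCE set to the log2 of their ratio to the floor, the median of the 10 genes was 3.44. That value mixes ratios to the floor with fitted differences and cannot be set beside the -0.10 of all genes. In Ribo-Zero, 9 of the 10 genes were over 2 times as high in FH, against 23.1% of 18707 genes, and 1, Des, was under 1 in 2 of CCE, against 28.6%. Scaled to the tags in protein-coding exons in place of all nuclear tags, 4865 genes were called higher and 2586 lower and the median of all genes moved to 0.15; the 10 calls and directions did not change. All 10 genes passed the filter of at least 10 tags over the 7 preparations, and 6 of them had under 10 tags in CCE and did so through FH (the 5 at 0 in CCE, and Neb). The 10 genes were chosen with earlier results of these data known, so these counts are a description.

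The order of the levels in FH RiboMinus, per length, was Actc1, Acta1, Myog, Myod1, Des, Myh3, Ttn, Neb, Myf5 and Myh8. The ranges of mean ± SD overlapped for the neighbours Acta1 and Myog, Myod1 and Des, Des and Myh3, Neb and Myf5, and Myf5 and Myh8. With the hydrolysed numbers crossed at Nijmegen, those of Actc1 and Acta1 (171 ± 90.8 and 66.4 ± 20.7 RPKM) and of Myog and Myod1 (47.9 ± 16.4 and 19.6 ± 12.3) overlapped as well. With the depleted RNA as the unit (SD, n = 2), the means of Myh8 (1.45 ± 0.000911 RPKM) and Myf5 (1.25 ± 0.0450) changed order. The ranges of Des and Myh3 were then the only ones of neighbours that overlapped. An SD over 2 pooled units can fall below the counting error, so these ranges do not settle the order. Myh8 and Myf5 rested on 170 and 26 FH tags. Means over 3 RPKM, the level under which the study treated a gene as not expressed, were reached in RiboMinus by 7 of the 10 genes in FH and 3 in CCE (Acta1, Actc1 and Des). Of 22367 protein-coding genes, 9007 were above 3 RPKM in pooled FH RiboMinus and had a tag in FH Ribo-Zero. In Ribo-Zero, Neb (4.89 RPKM) and Myh8 (4.15) were also above this level in FH, and Actc1 (0.845) was under it in CCE. In FH Ribo-Zero the order was Actc1, Myh3, Acta1, Myog, Ttn, Des, Neb, Myh8, Myod1 and Myf5.

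The depletion kits thus ordered the FH genes differently. The genes with exon models over 6 kb were higher in Ribo-Zero: Myh3 by 4.402-fold (4.05 to 4.79), Ttn by 3.55-fold (3.45 to 3.65), Myh8 by 2.86-fold (2.44 to 3.36) and Neb by 2.31-fold (2.11 to 2.52). Those under 2 kb were lower there: Myod1 was 4.73-fold, Actc1 3.24-fold, Myog 2.35-fold and Acta1 1.53-fold higher in RiboMinus. Between these lengths, Des had a ratio of Ribo-Zero to RiboMinus of 0.765 (0.682 to 0.860), and that of Myf5, 0.917 (0.594 to 1.46), did not differ from 1 beyond counting error. Over 9007 protein-coding genes above 3 RPKM in FH RiboMinus the median log2 ratio of Ribo-Zero to RiboMinus was -1.10 for exon models under 2 kb, -0.75 for 2 to 4 kb, -0.38 for 4 to 8 kb and 0.06 over 8 kb. Among these genes Myh3 (log2 ratio of 2.14) was above 99.2% and Ttn (1.83) above 98.5%, while 4.52% lay below Myod1 (-2.24). The intervals of these ratios cover counting error only. Single FH RiboMinus libraries ran from 20.3 to 67.1 RPKM (Myog), 34.6 to 95.4 (Acta1), 5.00 to 14.5 (Des) and 0.908 to 2.09 (Myf5). These ranges held the Ribo-Zero values. Every library was above Ribo-Zero for Myod1 and Actc1, and below it for the genes over 6 kb. Kit, RNA, fragmentation, tag length, location, sequencer and library differed together between these data and cannot be told apart. The RiboMinus pool held sheared and hydrolysed libraries, and Ribo-Zero was hydrolysed.

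**Figure D3:**
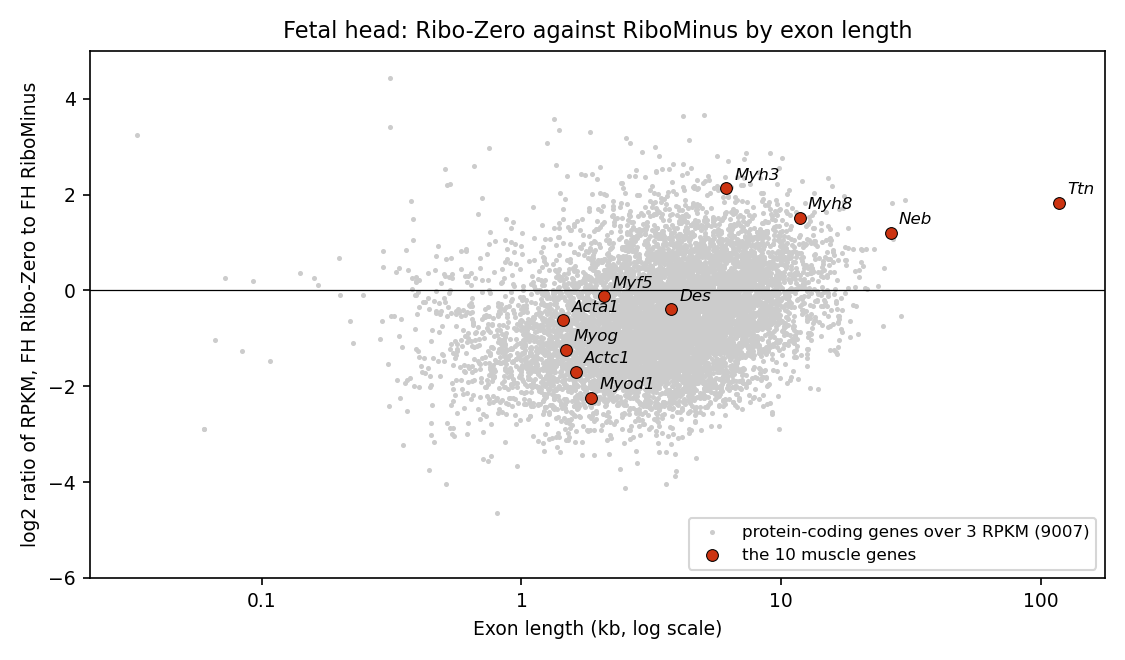
The log2 ratio of RPKM in FH Ribo-Zero to pooled FH RiboMinus (vertical axis) against exon length in kb on a log scale (horizontal axis), for 9007 protein-coding genes (grey) and the 10 muscle genes (red, named). Myh3, Myh8, Neb and Ttn lie above 0 and the other 6 genes below it, Myf5 by less than its counting error.

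Within FH RiboMinus, the sheared preparation and both hydrolysed ones differed by gene. Ttn was at 2.45 RPKM sheared and 5.17 and 5.07 hydrolysed, Actc1 at 109 and 200.2 and 212, and Neb at 1.31 and 2.48 and 2.17. Myod1 had the opposite order with 33.7 RPKM sheared and 11.6 and 13.6 hydrolysed, and Acta1 likewise with 90.1, 53.3 and 55.8. Myog was at 50.1 RPKM sheared and 47.0 and 48.3 hydrolysed. These hydrolysed values depended on the numbers: with the hydrolysed numbers crossed at Nijmegen, Myog was at 63.0 and 30.5 RPKM and Actc1 at 275 and 129.8. A single sheared FH preparation gives no test of fragmentation.

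The hydrolysed FH libraries of the same number did not match between locations for most of these genes. Actc1 was at 259 RPKM in FH1 and 135 in FH2 at Vienna-IMP, but at 122 in FH1 and 292 in FH2 at Nijmegen. Myog was at 67.1 and 37.99 RPKM at Vienna-IMP and at 20.3 and 58.9 at Nijmegen. The order of FH1 and FH2 differed between locations in 8 of the 10 genes and was the same in 2, Myf5 and Myh3. No share over all genes stands beside this count. The 10 genes were read in the same libraries and are not separate observations of a mismatch. With the hydrolysed numbers crossed at Nijmegen the calls of the 10 genes did not change. The study describes an FH RiboMinus lane, by its order FH1 hydrolysed at Vienna-IMP, as most likely a technical outlier in its tag types. Its part in the mismatch was not tested.

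Introns of the 10 genes were read at a lower density than exons in FH. Actc1 stood lowest, with an intron density of 0.795% of the exon density in FH RiboMinus and 1.27% in FH Ribo-Zero, and Ttn had 4.19% and 2.34%. Myod1, with 0.765 kb of intron, stood highest with 11.1% and 20.1%. The median over protein-coding genes above 3 RPKM with more than 1 kb of intron was 6.17% in FH RiboMinus (8216 genes) and 9.99% in FH Ribo-Zero (7884 genes), a class that Myod1 is too short for. Myh8 (9.47%) and Myf5 (7.00%, from 1 intron tag) were above that median in RiboMinus. Their pooled levels there, 1.46 and 1.26 RPKM, also put them outside the class of the median. The exon bases outside the coding sequence were read at a lower density than coding bases in all 10 genes and both FH datasets, from 0.0897 of the coding density (Myh8) to 0.746 (Myog) in RiboMinus. For Myf5, coding exons alone gave 2.77 RPKM in FH RiboMinus and 1.89 in FH Ribo-Zero.

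Further genes were read from 7 lists of muscle genes with 115 genes besides the 10. FH is mainly fetal brain, and which cells of the head gave the tags of these genes was not tested. Of the 104 tested, 75 were called higher in FH, 11 lower and 18 did not pass, against 23.2% higher and 24.9% lower of all genes tested. Their median log2 difference was 1.13, or 1.24 with genes at 0 in CCE at their bound, which mixes bounds with fitted differences. Of these 104 genes 48 had under 10 tags in CCE and needed their FH tags to enter the test, among them 46 of the 75 called higher, so the counts of these lists are a description. All 12 thick filament genes tested besides the 10 were higher, led by Mylpf, the fast regulatory light chain, at 152 ± 67.7 RPKM in FH (SD, n = 3) against 3.58 ± 1.84 in CCE (SD, n = 4), and by Myl4, the embryonic light chain, at 31.2 ± 7.88 against 0.889 ± 0.375. In Ribo-Zero, Myh7b, a slow-type myosin, was at 0.590 (FH) and 1.08 (CCE) RPKM and Myl3, a slow and ventricular light chain, at 0.480 and 0.872, the opposite order to RiboMinus. The adult fast myosins were near 0: Myh4 had no FH RiboMinus tag, Myh2 had 1 and Myh1 had 8, and none of these was tested.

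Among thin filament genes, 8 of 14 were higher, 1 lower and 5 did not pass. Tnnc1 and Tnni1, troponin subunits of slow fibres, rose to 22.8 ± 6.34 and 37.9 ± 2.63 RPKM in FH (SD, n = 3). Tpm1, a tropomyosin that smooth muscle and non-muscle cells also use, was at 169 ± 29.5 RPKM in CCE (SD, n = 4) and 17.98 ± 2.96 in FH. Of 17 genes of the Z disc and intermediate filaments besides Des, 11 were higher, 4 lower, a share near that of all genes, and 2 did not pass. Actn2, the sarcomeric alpha-actinin, was at 9.64 ± 1.73 RPKM in FH and 0.562 ± 0.107 in CCE, and Ankrd2, an ankyrin repeat protein, at 4.26 ± 0.869 and 0.285 ± 0.432. Cryab, a small heat shock protein that is also a lens crystallin, was at 4.00 ± 0.382 RPKM in FH and 50.2 ± 13.2 in CCE, but at 3.61 and 3.78 RPKM in the Ribo-Zero libraries.

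The regulators besides the 3 described showed 12 higher, 3 lower and 2 not passing of 17. Tmem8c, the myoblast fusion protein myomaker, had 96 FH tags and none in CCE, and Mef2c was at 7.75 ± 2.80 RPKM in FH (SD, n = 3) against 0.2498 ± 0.0968 in CCE. Tcf21 was lower in FH at 0.916 ± 0.367 RPKM against 13.8 ± 1.76 in CCE (SD, n = 4). In excitation-contraction coupling 11 of 17 were higher, 1 lower and 5 did not pass. Sln, the calcium pump regulator sarcolipin, had 131 FH tags and no CCE tag, and Atp2a1, the fast fibre calcium pump, had 97 and 4. Jph2, a junctophilin, fell by 2.61 on the log2 scale (limma adjusted p = 0.000224).

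At the neuromuscular junction 7 of 8 genes were higher and 1 lower, and all 7 had under 10 tags in CCE. Chrng, the fetal subunit of the acetylcholine receptor, was at 6.48 ± 0.882 RPKM in FH (SD, n = 3) and 0.186 ± 0.136 in CCE (SD, n = 4), and Rapsn, which clusters the receptor, at 6.06 ± 3.41 and 0.230 ± 0.267. Chrnb1 was lower, with a log2 difference of -0.69 (limma adjusted p = 0.0266), but stood at 2.01 (FH) and 1.45 (CCE) RPKM in Ribo-Zero. Of 19 genes of muscle metabolism and membrane, 14 were higher, 1 lower and 4 did not pass. Ckm, muscle creatine kinase, was at 30.8 ± 8.03 RPKM against 0.430 ± 0.593, and Cav3, the muscle caveolin, had 160 FH tags and none in CCE. Trim63, a ubiquitin ligase, was lower, with a log2 difference of -0.52 (adjusted p = 0.0328).

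**Figure D4:**
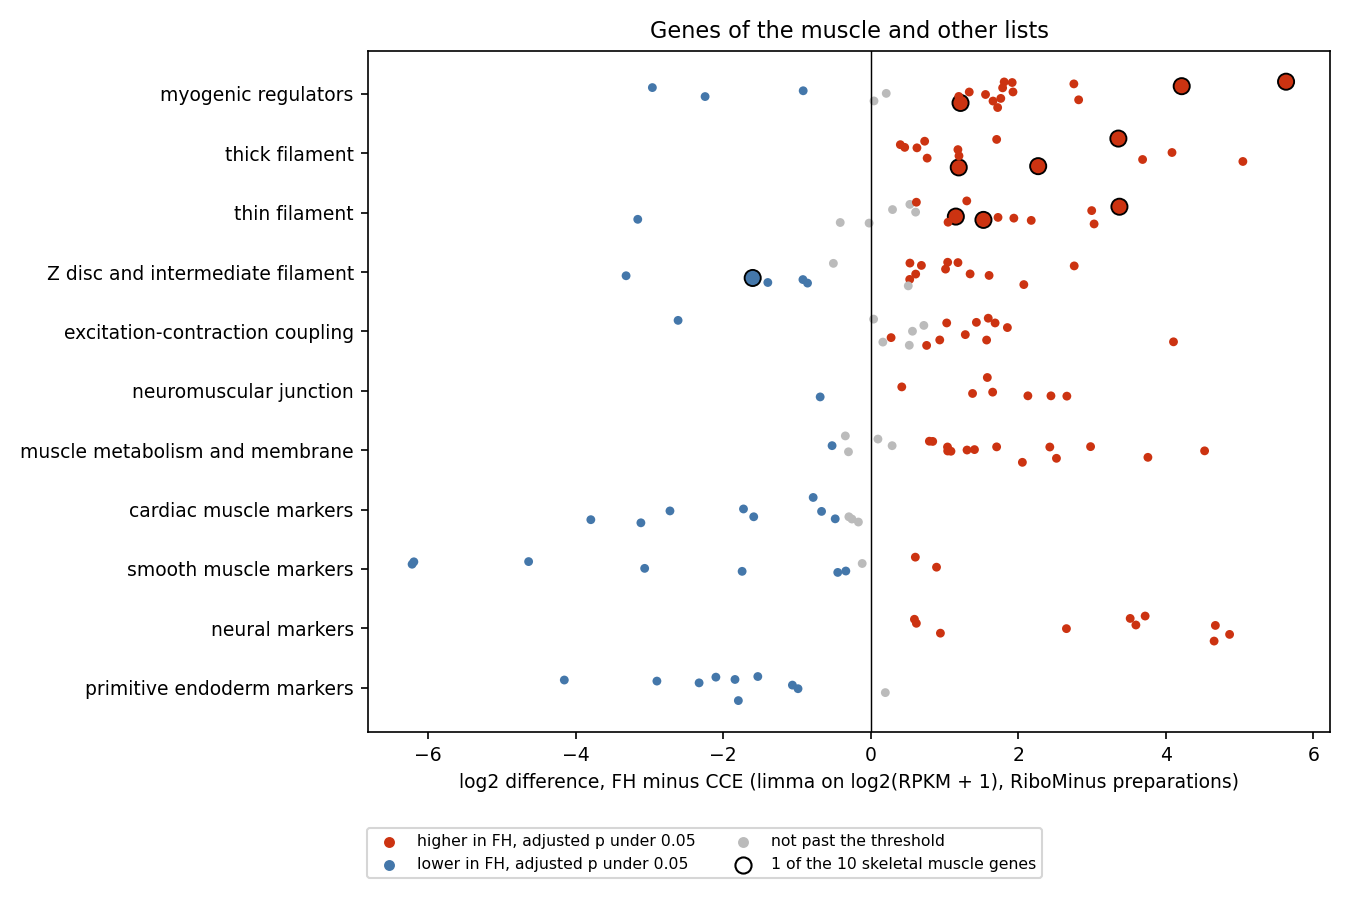
The fitted log2 difference of FH minus CCE (horizontal axis) of every tested gene in 11 lists (vertical axis, points spread at random within a row), with colour giving the call and ringed points the 10 skeletal muscle genes. In the 7 skeletal muscle lists most points lie to the right of 0 (84 of 114 called higher), and the cardiac and smooth muscle markers lie mostly to the left.

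The mean of the 10 genes over the 16 libraries, each gene scaled to a mean of 0 and an SD of 1, was followed most closely by Hecw1, Grin2b, Col6a3, Thbs2 and Lox among 10761 genes outside the lists with a mean over 3 RPKM in a tissue. Their Pearson r was 0.988, 0.987, 0.987, 0.986 and 0.986, as a description over libraries that share tissue, kit and cDNA. Grin2b, a neuronal glutamate receptor subunit, was at 5.16 RPKM in FH and 0.00909 in CCE, and Col6a3, a collagen of the extracellular matrix, at 23.8 and 0.0437. Of the 10 genes themselves Myog followed the mean most closely (0.9745), and Des ran against it (-0.82). Each of the 10 genes is part of that mean, so their r cannot be set beside those of the genes outside.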

How the data were processed

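Illumina tags of 16 libraries were analysed, of 24 samples listed. The authors mapped the reads to mm9 with Bowtie, whose version is not given in the sources used here, and deposited the coordinates of tags that matched once in the genome, with no other unit; the deposited intervals span 35 (Vienna-IMP), 34 (Nijmegen) or 51 (Ribo-Zero) bases. The deposited tags carry no count per gene. Tags across splice junctions were not mapped by the authors, which lowers the RPKM of genes with many short exons. Myh3 had 4089 windows of 51 bases within single exon blocks for 6150 exon bases, and Myog 1329 for 1479. Orders of genes by RPKM carry this limit. Here each tag was counted by its midpoint in the merged exons of GENCODE M1 genes, without strand, and scaled to exon kilobases and nuclear tags (RPKM). Tags of both locations were summed per preparation, since the cDNA was the same. FH and CCE were compared with limma 3.58.1 (R 4.3.3; lmFit, eBayes with trend) on log2(RPKM + 1) over 7 RiboMinus preparations, for 16836 genes with at least 10 tags, with Benjamini-Hochberg adjustment and a two-sided threshold of 0.05. Tested on simulated data (16816 genes past the filter), the fit called all 200 well-read genes given a 4-fold change, and 9 others. The simulated counts were independent, with an assumed spread, so they lacked the shared RNA of the real preparations. They gave no test of genes with few tags. Depth was 920424 to 2473448 tags in RiboMinus, which limits low genes such as Myf5.

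The 10 members and the lists were chosen with earlier results of these data known. Named besides the 10 members were, for each list, the 2 genes with the largest and the 1 with the smallest difference among those tested, and the 5 genes most like the mean of the members; Acta2, Actg2, Myocd, Myh1, Myh2, Myh4, Myh6, Myh7b, Myh11, Myl3, Myl7, Tnni3, Nppb, Cnn1, Hand2, Sox2 and the genes that share exons with a member were added after their values were seen. The smallest difference of the thick filament list and the sequences of 1 actin window are not reported here. Ratios of pooled tags have exact conditional intervals (95%), levels exact Poisson intervals and shares exact Clopper-Pearson intervals; a count of 0 was set to a floor of 3 tags over the group. Matches of exon windows were counted in mm9. Python 3.11.15, numpy 2.4.6, scipy 1.17.1 and numba 0.67.0 were used. Alternatives were another pseudocount, filters, voom, covariates, crossed numbers, the depleted RNA as the unit, single locations, repeated positions, other totals and exon definitions, and each preparation left out in turn.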

Additional observations from a re-analysis of the deposited data

Results flagged for a closer look

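1 library stood apart from the others of its group. Ttn in the CCE2 sheared library at Nijmegen was at 0.0123 RPKM, from 2 tags, and the nearest of the other 7 CCE RiboMinus libraries was at 0.0412 RPKM. The gap was 0.528 of the range of the group, just above the critical value of Dixon's test at 95% for 8 libraries. It was 1 of 15 groups of libraries looked at for the 10 genes, and chance does so in about 5% of groups.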

How the results depend on the processing

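The direction and the call of each of the 10 genes were the same in all 237 values that 24 alternatives gave, with an adjusted p of at most 0.0175 (Acta1, Vienna-IMP libraries only). A filter on mean RPKM over 3 left 7 of the 10 genes to test, of which 6 were called higher; it gave 2202 genes called higher in all, and 38 other muscle genes called higher. Nijmegen libraries alone gave 2736 genes called lower, the total of protein-coding exon tags 2586, and Vienna-IMP libraries alone 7 other muscle genes called lower. With the replicate block (the preparation number, which marks no RNA shared between the tissues), 3654 genes were called higher and 3651 lower, 9 of the 10 genes were higher and no call of the 10 changed. Number 1 minus number 2 correlated at -0.08 over 16836 genes between hydrolysed CCE and FH preparations, and at 0.07 with sheared CCE. With the depleted RNA as the unit (2 against 2, sheared and hydrolysed tags summed, chosen after the data were seen), 4733 genes were called higher and 5927 lower, 9 of the 10 genes were higher, and the adjusted p of Acta1 was 0.000626. Leaving out each preparation gave 3276 to 3929 genes called higher and 3302 to 4317 lower. In Ribo-Zero, with no test, repeated positions counted once gave log2 ratios of 6.25 (Myh3), 1.72 (Acta1), 4.19 (Actc1), 5.03 (Neb), 5.52 (Ttn) and -1.36 (Des). The total of protein-coding exon tags gave 3.48 (Acta1), 6.68 (Actc1), 6.28 (Neb), 7.07 (Ttn) and -0.61 (Des), and coding exons gave 6.10 (Neb) and -1.06 (Des). The cause of these shifts was not tested. Low tag numbers limit genes such as Myf5 (26 FH tags) and Neb in CCE (7 tags).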
